A study of Mus musculus with 2 samples.

Results

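Mir193a, Mir193b, Mir365-1 and Mir365-2 are the 4 microRNA genes that make up the Mir193 and Mir365 clusters of the mouse. They were found by their gene names in the GENCODE M21 annotation, and all 4 are among the 2202 microRNA genes measured. The sequenced tissue was the gastrocnemius, the large muscle of the calf, from adult male mice labelled as strain 5xFAD/CAST and aged 8 to 10 months. The name 5xFAD stands for a transgenic line that models brain amyloid disease, and CAST for an inbred strain of wild origin. The labels do not say whether the animals carried the transgene. The single group has 2 libraries, numbered as biological replicates 1 and 2 of RNA shorter than 30 bases. They were made from separate tissue samples with a common donor record, so part of their spread may be technical, and no comparison of conditions was possible.

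A microRNA is cut from a hairpin precursor, and either arm of the hairpin can give a mature RNA, named 5p or 3p. Bases 2 to 8 of the mature RNA, the seed, do most of the pairing with target messenger RNAs. Mir193b and Mir365-1 are best known in the mouse from brown fat. Cell culture work there placed the pair downstream of Prdm16, a regulator of brown fat identity, and found that Mir193b directed muscle precursor cells towards brown fat cells. A later deletion of the pair in mice left brown fat formation intact. Brown fat cells and skeletal muscle arise from related precursors, which is why these loci are of interest in muscle.

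The mature sequences are shown first because they decide which reads can be assigned to which locus. They come from RefSeq on GRCm38.p6, the same assembly as mm10, with the seed in capitals:
mmu-miR-193a-3p: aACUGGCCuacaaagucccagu
mmu-miR-193b-3p: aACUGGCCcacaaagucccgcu
mmu-miR-193a-5p: uGGGUCUUugcgggcaagauga
mmu-miR-193b-5p: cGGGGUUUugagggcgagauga
mmu-miR-365-3p: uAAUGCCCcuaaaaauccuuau
mmu-miR-365-1-5p: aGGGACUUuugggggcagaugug
mmu-miR-365-2-5p: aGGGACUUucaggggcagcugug

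The 3p arms of the Mir193 paralogs have the same seed, which in the RefSeq table is found in these 2 mature RNAs and in no other. They match at 19 of 22 positions (86.4%), and the substitutions from miR-193a-3p to miR-193b-3p, counted from the 5′ end, are U9C, A20G and G21C. The 5p arms match at 17 of 22 positions and differ within the seed, by U5G and C6U. The longest run of bases shared by the Mir193a and Mir193b hairpins is 10, so their reads can be told apart. The Mir365 paralogs are different in this respect. Both give the identical miR-365-3p, and only their 5p arms differ, at 3 of 23 positions (C10U, A11G and C19A from miR-365-2-5p to miR-365-1-5p), all outside a common seed. Around miR-365-3p the Mir365-1 and Mir365-2 hairpins share 27 bases, in which the capitals mark the mature RNA:
stretch common to Mir365-1 and Mir365-2: ucaUAAUGCCCCUAAAAAUCCUUAUug

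A read that lies inside this stretch matches both loci. Reads aligned to several places stand in a total of their own in the deposited files and in no gene. That total was 3.18 times the reads assigned to microRNA genes in replicate 1 and 3.51 times in replicate 2. How many of them were miR-365-3p cannot be read from the counts, which also do not separate the arms. The levels of Mir365-1 and Mir365-2 given here are therefore those of uniquely placed reads, and the abundance of miR-365-3p in the muscle was not measured.

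On mm10, Mir193a (ENSMUSG00000065395.1) lies at chr11:79711969-79712034 and Mir365-2 (ENSMUSG00000065489.1) at chr11:79726400-79726511, with 14365 bases between them. Both are intergenic, and the nearest protein-coding gene before Mir193a is Rab11fip4. Mir193b (ENSMUSG00000076972.2) lies at chr16:13449523-13449601 and Mir365-1 (ENSMUSG00000065449.1) at chr16:13453840-13453926, with 4238 bases between them. These 2 genes lie in an intron of Gm15738, annotated as an antisense RNA on the opposite strand, between the coding genes Mrtfb and Parn. The opposite-strand count was 0 at all 4 loci in both libraries. With 3 counts as the limit for a count of 0, the level there may be up to 2.59 and 2.51 CPM in replicates 1 and 2. CPM is the count scaled to a library total of 1000000 sense reads in microRNA genes.

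**Figure D1:**
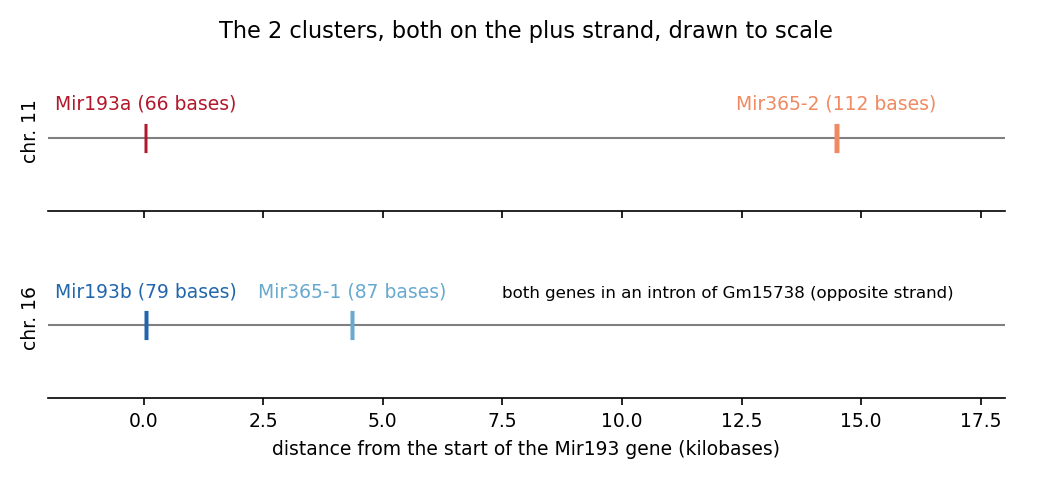
Positions of the 4 genes by distance from the start of the Mir193 gene of each cluster (kilobases), with chromosome 11 above and chromosome 16 below. In each cluster the Mir193 gene comes first on the plus strand, and the gap to the Mir365 gene is 14365 bases on chromosome 11 and 4238 bases on chromosome 16.

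The libraries held 1157420 sense reads in microRNA genes in replicate 1 and 1193393 in replicate 2. As a check of the tissue, 8 of 9 skeletal muscle loci were detected, meaning 2 CPM or more in both libraries, and together they held 3.87% and 3.73% of the sense reads in replicates 1 and 2. Mir206, a microRNA found mainly in skeletal muscle, gave most of this at 32940 ± 12.0 CPM (SD, n = 2), while Mir1a-1, Mir1a-2, Mir133a-1, Mir133a-2 and Mir133b, which share 20 or more bases with another locus, had at most 60 reads each. Of 6 neuronal loci, 5 had no read and Mir9-1 had 1 read in replicate 2. All 6 also share 20 or more bases with another locus, so these counts cannot show that neuronal RNA was absent.

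Mir193b and Mir193a ranked 56 and 73 of the 321 detected genes by mean CPM, and the uniquely placed reads of both Mir365 genes were few. Mir193b had 1639 reads in replicate 1 and 770 in replicate 2, that is 1416 CPM (exact Clopper-Pearson 95% interval 1348 to 1486) and 645 CPM (600.5 to 692). Replicate 1 was the high library for Mir193b, and the intervals, which cover counting error only, did not overlap. Mir193a had 415 reads in replicate 1 and 814 in replicate 2, at 359 CPM (325 to 395) and 682 CPM (636 to 731). For Mir193a it was replicate 2 that was high, again without overlap. Mir365-2 had 61 and 27 reads, at 52.7 CPM (40.3 to 67.7) in replicate 1 and 22.6 CPM (14.9 to 32.9) in replicate 2, so it was higher in replicate 1. Mir365-1 had 9 and 12 reads, at 7.78 CPM (3.56 to 14.8) and 10.1 CPM (5.20 to 17.6), and its intervals overlapped. All 4 genes passed the detection limit in both libraries, as did 321 of the 2202 genes.

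**Figure D2:**
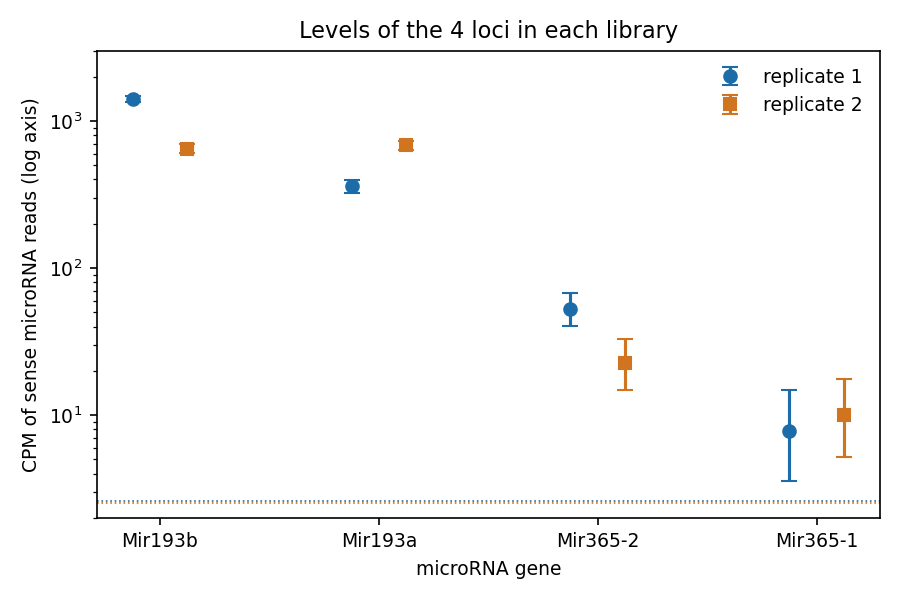
CPM of sense microRNA reads (log axis) at each gene, with circles for replicate 1, squares for replicate 2, bars for the exact 95% interval of counting error, and dotted lines at the limit that a count of 0 allows. Mir193b stands at 1416 CPM in replicate 1 and 645 CPM in replicate 2, and Mir193a at 359 and 682 CPM.

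The mean levels over both libraries followed the order Mir193b, Mir193a, Mir365-2, Mir365-1. They were 1031 ± 545, 520 ± 229, 37.7 ± 21.3 and 8.92 ± 1.61 CPM (SD, n = 2), at ranks 56, 73, 176 and 262 of the 321 detected genes. The Mir193 paralogs did not differ in level beyond the spread between the libraries: Mir193b had 3.95 times the reads of Mir193a in replicate 1, and Mir193a had 1.06 times those of Mir193b in replicate 2, where their CPM intervals overlapped. Mir365-2 lay above Mir365-1 in both libraries, with intervals that were apart in replicate 1 and overlapped in replicate 2. The Mir193 and Mir365 genes were apart in each library. A read spans a whole mature RNA of 22 or 23 bases, so CPM was not divided by gene length; per 100 bases of the annotated gene the mean levels were 1305, 788, 33.6 and 10.2 CPM, in the same order. Directly above and below them by mean CPM stood Mir652 and Mir92-1 for Mir193b, Mirlet7c-2 and Mir411 for Mir193a, Mir190b and Mir598 for Mir365-2, and Mir1938 and n-TSaga9 for Mir365-1.

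The balance between Mir193a and Mir193b changed from one library to the other, and with it the share of each cluster. Of the reads of the 4 genes, 2124 in replicate 1 and 1623 in replicate 2, the Mir193 genes held 96.7% and 97.6%. The chromosome 16 cluster held 77.6% in replicate 1 and 48.2% in replicate 2, and the chromosome 11 cluster 22.4% and 51.8%. The Mir365 genes went the other way, on few reads. Mir365-1, on chromosome 16, held 12.9% of their uniquely placed reads in replicate 1 and 30.8% in replicate 2. Mir193a was 20.2% of the reads of the Mir193 paralogs in replicate 1 (95% interval 18.5 to 22.0) and 51.4% in replicate 2 (48.9 to 53.9). The ratio of Mir193a to Mir193b was thus 4.17 times higher in replicate 2, with an exact conditional 95% interval of 3.60 to 4.84. These shares compare genes within a library and do not depend on how the libraries are scaled. The paralogs together held 1775 CPM in replicate 1 and 1327 CPM in replicate 2. Their sum in replicate 2 was 0.925 times that in replicate 1 (0.866 to 0.988) after TMM scaling, in which edgeR sets library sizes so that most genes are level, and 0.748 times (0.700 to 0.799) by total counts.

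**Figure D3:**
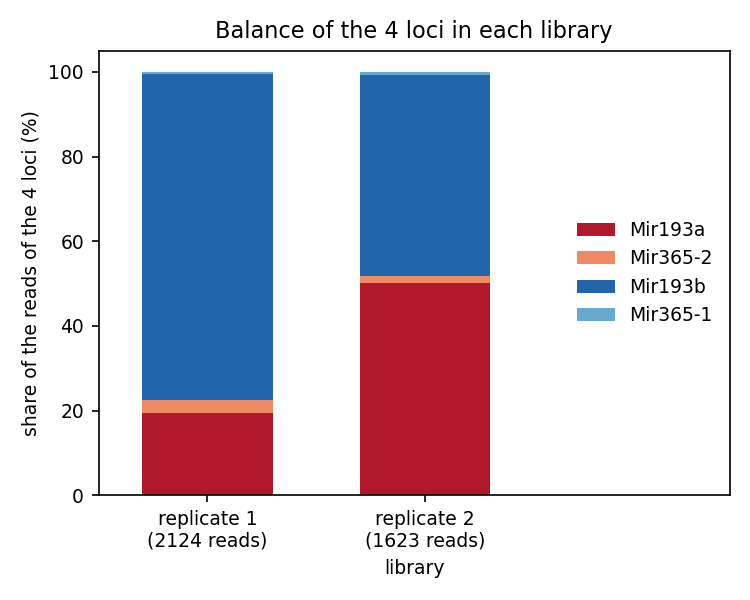
Share (%) of the reads of the 4 genes taken by each gene, with 1 stacked bar per library. The red and orange parts, the chromosome 11 cluster, make up 22.4% of replicate 1 and 51.8% of replicate 2.

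In uniquely placed reads, the ratio of neighbours within a cluster differed between the libraries by more than counting error. On chromosome 11, Mir193a was 87.2% of the reads of Mir193a and Mir365-2 in replicate 1 (83.8 to 90.1) and 96.8% in replicate 2 (95.4 to 97.9), and the ratio of Mir193a to Mir365-2 was 4.43 times higher in replicate 2 (2.72 to 7.36). On chromosome 16, Mir193b was 99.5% of the reads of Mir193b and Mir365-1 in replicate 1 and 98.5% in replicate 2, and the ratio of Mir193b to Mir365-1 was 2.84 times higher in replicate 1 (1.09 to 7.66), on 9 and 12 reads of Mir365-1. The share of Mir365-1 among the Mir365 paralogs was 12.9% (6.05 to 23.0) and 30.8% (17.0 to 47.6) in replicates 1 and 2. Across the clusters, the ratio of Mir193b to Mir365-2 was 26.9 in replicate 1 and 28.5 in replicate 2. Its change, 1.06-fold with an interval of 0.658 to 1.75, was not detectable at this depth. The sixth pair, Mir193a with Mir365-1, had an interval of 0.543 to 3.84 that included no change. Intervals are given for all 6 pairs without p-values. Those of pairs with a Mir365 gene rest on uniquely placed reads alone.

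The same differences were then set against those of all detected genes, by testing the reads of each gene in replicate 2 against replicate 1 at TMM library sizes, with an exact conditional binomial test (two-sided) and Benjamini-Hochberg adjustment over 321 genes. This test compares 2 libraries and not conditions. Of the 4 genes, 3 passed at an adjusted p under 0.05, against a background of 37.4% of all tested genes. In replicate 2, Mir193a was 2.35-fold higher (2.09 to 2.65; exact binomial adjusted p = 2.6e-47). In replicate 1, Mir193b was 1.77-fold higher (1.63 to 1.94; exact binomial adjusted p = 2.2e-40). Mir365-2 was also higher in replicate 1, at 1.88-fold (1.18 to 3.08; exact binomial adjusted p = 0.015), and Mir365-1 did not pass, with a ratio of 1.60 (0.618 to 4.30; exact binomial adjusted p = 0.57). The background in each direction was 18.7%.

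Among the 128 genes of 100 CPM or more on average, 67.2% passed this test, so the size of the ratio is given beside the call. In that set the median absolute log2 ratio was 0.31. Mir193a, at a log2 ratio of 1.23, had the fifth highest ratio, and Mir193b, at -0.83, the eleventh lowest. The genes with ratios closest to that of Mir193a, over 2 libraries, were Mir24-2 at 1.20, Mir22 at 1.34 and Mir29c at 1.09. Those closest to Mir193b were Mirlet7a-1 at -0.85, Mir664 at -0.91 and Mir320 at -0.91.

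**Figure D4:**
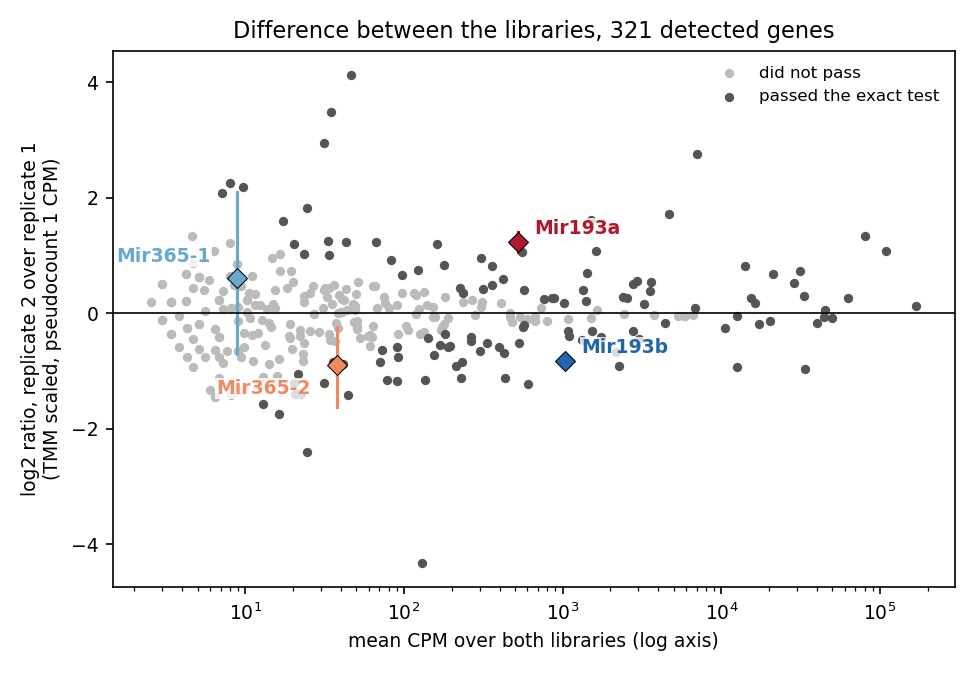
Log2 ratio of replicate 2 over replicate 1 after TMM scaling against mean CPM (log axis) for the 321 detected genes, dark where the exact binomial test passed. Diamonds with 95% intervals mark the 4 genes: Mir193a stands at 1.23 and Mir193b at -0.83, on opposite sides of 0.

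The test counts only sampling of reads as error. With the dispersion set to 0.01, a 10% coefficient of variation, the exact test of edgeR still called Mir193a (edgeR exact adjusted p = 1.4e-06) and Mir193b (edgeR exact adjusted p = 0.0014) but not Mir365-2 (edgeR exact adjusted p = 0.11), against a background of 16.5% of genes. At the common dispersion estimated from these 2 libraries, a coefficient of variation of 33.8% that takes in every difference between them, no member was called (edgeR exact unadjusted p = 0.085 for Mir193a and 0.24 for Mir193b) and 1.56% of genes were.

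The Mir193 paralogs were then set beside other genes that share a seed. RefSeq mature sequences were found for 290 of the 321 detected genes (90.3%), and 108 pairs of genes of 100 CPM or more shared a seed. Both genes were called in opposite directions in 25 of the 108 pairs and in the same direction in 39. In 28 of these pairs, neither gene shares 20 bases with another microRNA gene, as is the case for the Mir193 paralogs. Of the 28 pairs, 15 had both genes called in opposite directions and 13 in the same direction. The difference of 2.06 between the log2 read ratios of Mir193a and Mir193b was the second largest of the 28, after that of Mir195a and Mir322, which were called in the same direction, and stood beside a median of 0.71. Over all 108 pairs it ranked sixth, beside a median of 0.51. The pairs share genes and libraries, so these ranks are a description.

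**Figure D5:**
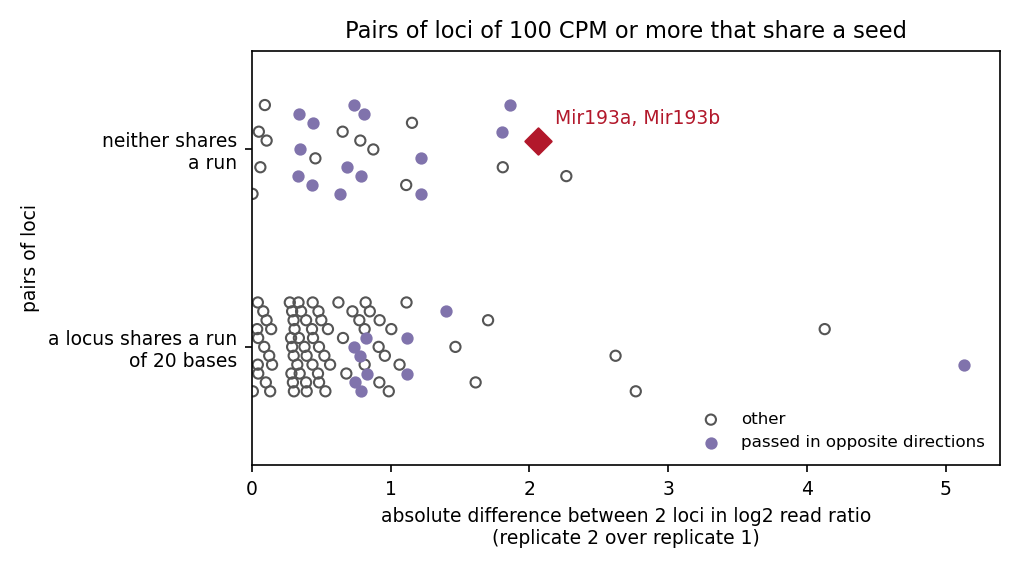
Absolute difference in log2 read ratio between the 2 genes of each of 108 seed-sharing pairs, split by whether a gene of the pair shares 20 bases with another microRNA gene, with filled points where both passed in opposite directions. The Mir193 pair, a red diamond at 2.06, lies to the right of all but 1 of the 28 pairs in the upper row.

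For genes close together on 1 strand, within 20000 bases, 247 pairs of detected genes had a median difference of 0.74 in log2 read ratio. The difference of 2.15 between Mir193a and Mir365-2 was exceeded in 18 of these pairs. Of the 247 pairs, 22 were called in the same direction and 12, this one included, in opposite directions. No floor of 100 CPM was set for these pairs, so low counts enter the ranking. Mir302d, in the pair with the largest difference, had 7 and 76 reads in replicates 1 and 2, and Mir365-2 had 61 and 27.

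Other microRNAs linked to brown fat were read from a list chosen with earlier results of these data known. Of 17 loci linked to more brown or beige fat, which include Mir193b and Mir365-1, 15 were detected. The exact binomial test over all genes called 1 of them higher in replicate 2 and 5 higher in replicate 1, against a background of 18.7% of all tested genes in each direction, and the median log2 ratio was -0.32 beside -0.013 for all tested genes. By total counts, where the median of all genes was -0.30, none was higher in replicate 2, 12 were higher in replicate 1 and the median was -0.63, against a background of 10.9% and 35.5% of all tested genes in those directions. Mir378a, a regulator of energy metabolism within Ppargc1b, held 169580 ± 14393 CPM (SD, n = 2). It was 1.10-fold higher in replicate 2 with TMM and 1.13-fold higher in replicate 1 by total counts. Mir196a-2, which in mice promotes brown-like cells in white fat, had 3823 and 2272 CPM in replicates 1 and 2. Mir328 had 3366 and 2206 CPM. Both were higher in replicate 1. Mir26a-1 had 289 and 11 reads, the largest change of the list, and shares 20 bases or more with another locus, as do 10 of the 17 loci.

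Of 11 loci linked to less brown fat, 10 were detected, 3 called higher in replicate 2 and 3 higher in replicate 1, beside the same 18.7% each way, with a median log2 ratio of 0.00058. By total counts the calls were 1 and 5, beside 10.9% and 35.5% of all genes, and the median was -0.30, the same as for all genes. Mir27b, which in mice represses Prdm16, had 3316 and 3911 CPM in replicates 1 and 2. It was higher in replicate 2, 1.18-fold by total counts and 1.46-fold with TMM. Mir93 had 1861 and 1220 CPM and was 1.23-fold higher in replicate 1 with TMM. Mir155, at 1698 and 1305 CPM, did not pass (exact binomial adjusted p = 0.25). Mir133a-1, a muscle microRNA that also represses Prdm16, had 24 and 6 reads and passed (exact binomial adjusted p = 0.015). The 3 loci of both lists that were not detected were Mir196a-1, with 16 and 2 reads, Mir129-2, with 3 and 2, and Mir133a-2, with 5 and 0.

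Markers of other tissues and cells also differed between the libraries, as did many other genes. The exact binomial test called 18.7% of all tested genes in each direction, and 67.2% of those of 100 CPM or more in either. Mir455, the 1 locus of the brown fat marker list, had 568 CPM in replicate 1 and 283 CPM in replicate 2. The difference was 2.00-fold by total counts and 1.62-fold with TMM (exact binomial adjusted p = 1.2e-12). Mir126a, the 1 endothelial marker, had 80768 and 137670 CPM and was higher in replicate 2, 1.70-fold by total counts and 2.11-fold with TMM. Leukocyte markers, all 3 detected, summed to 1484 and 948 CPM, with Mir150 called higher in replicate 1. Epithelial markers, 3 of 4 detected, summed to 121 and 87.1 CPM, with Mir200c called higher in replicate 2 on 3 and 16 reads, and the 2 erythroid markers summed to 163 and 153 CPM. Of these, Mir144 was called higher in replicate 2 on 9 and 65 reads, while Mir451a, at 156 and 98.0 CPM, did not pass. The smooth muscle markers Mir143 and Mir145a summed to 50799 and 42140 CPM, with Mir145a called 1.33-fold higher in replicate 1 and Mir143 1.04-fold higher in replicate 2 with TMM but 1.19-fold higher in replicate 1 by total counts. For the 8 detected skeletal muscle loci the background was the same 18.7% each way. Of these loci, Mir206, Mir499 and Mir208b were called higher in replicate 2 and Mir486 and Mir133a-1 higher in replicate 1. The first 3 stood at 1.24-fold, 1.51-fold and 1.70-fold with TMM, and Mir206 at a log2 ratio of -0.00074 by total counts. The heart marker Mir208a and the liver marker Mir122 had between 12 and 22 reads. The part of any of these in the Mir193 difference was not tested, and in whole tissue fewer cells of a type and less RNA per cell cannot be told apart.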

How the data were processed

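Small RNA of 2 gastrocnemius samples was sequenced. The deposited files hold raw counts of reads for each microRNA gene in 3 columns without a header (both strands, then each strand), on mm10 and GENCODE M21 per the deposited text descriptions. The aligner was not given in the sources used here, and so no step before counting is described. The rule's column 3 has the larger stranded total and was taken as sense. The 4 lines of totals, which name no gene, held 81.1% and 82.0% of reads in replicates 1 and 2 and stayed out of library sizes and tests. CPM, exact Clopper-Pearson 95% intervals, ratios with a pseudocount of 1 CPM and the exact binomial test were computed here with edgeR 4.0.16 (TMM factors 1.11 and 0.899), DESeq2 1.42.0 for alternative size factors, R 4.3.3, and Python 3.11.15 with scipy 1.17.1. The quasi-likelihood test leaves no residual degrees of freedom with 1 library on each side. Reads carry no molecular identifiers, so intervals cover counting error only. Members and lists were chosen with earlier results of these data known. The named genes were the members, their neighbours by level, the 3 nearest by ratio at 100 CPM or more, and for the brown fat lists the 3 most abundant and those called at 2-fold or more. Alternatives were other scalings, filters, count columns, tests and denominators.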

Additional observations from a re-analysis of the deposited data

How the results depend on the processing

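Mir193a was higher in replicate 2 in all 9 alternative fits (1.90-fold to 2.42-fold) and passed in 8. Mir193b was higher in replicate 1 in all 9 and passed in 8. Mir365-2 kept its direction in 8 fits and passed in 6, and Mir365-1 passed in none of 7. The edgeR fits and the fit with a smaller pseudocount keep the main fold by construction, so their direction is no separate check. At the estimated common dispersion the log2 ratios of 1.23, -0.83 and -0.89 for Mir193a, Mir193b and Mir365-2 did not pass, and at a dispersion of 0.01 that of Mir365-2, -0.89, did not; both settings allow more spread by construction. Genes called fell from 120 (37.4% of the 321 tested) to 53 (16.5%) at a dispersion of 0.01 and to 5 (1.56%) at the estimated one. Brown fat list members called, out of 15 and 10 tested on the 2 lists, fell from 12 to 3 and to 1. By total counts, 35 genes were higher in replicate 2 and 114 in replicate 1, against 60 and 60 with TMM. With all reads as the denominator the mean levels were 192, 95.3, 7.02 and 1.64 CPM for Mir193b, Mir193a, Mir365-2 and Mir365-1. Mir193a held 788 CPM per 100 bases. Mir365-1 held 12.7 CPM with the column of both strands and 10.7 CPM without the most abundant gene in the denominator. In the column of both strands its reads were the same, 9 and 12, over smaller totals of 832260 and 818309 in replicates 1 and 2. Each replicate alone gave from 645 to 1416 CPM for Mir193b, from 359 to 682 CPM for Mir193a and from 20.2% to 51.4% for the share of Mir193a in the Mir193 reads; with 2 libraries this range is the spread itself. Library ratios need both libraries, so no fit without a replicate was possible; the filter of 10 CPM removed Mir365-1, and leaving out genes that share 20 bases removed both Mir365 genes. With 9 to 61 reads in a library, depth limits the Mir365 genes.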
